A study of Mus musculus with 8 samples.

Results

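The genes described here encode the D and E cyclins, the kinase CDK6 and the inhibitors of cyclin-dependent kinases (CDKs) that set the passage of a cell through G1, the phase between division and DNA synthesis. The group was taken as 10 named genes, Ccnd1, Ccnd2, Ccnd3, Ccne1, Ccne2, Cdk6, Cdkn1a, Cdkn1b, Cdkn2a and Cdkn2c, and all 10 were found by exact symbol among the 24421 genes of the count tables. They were read in 8 libraries of 3' RNA-seq from mouse CD8+ T cells, the killer cells of the adaptive immune system. The LKB1-deficient group and the LKB1 wild-type control group held 4 libraries each. In both groups naive cells had been stimulated for 48 hours on plates coated with antibodies to CD3 and CD28, which stand in for antigen and costimulation. LKB1 is a kinase that activates AMPK and its relatives and is encoded by Stk11. The labels name neither the deleted allele nor the way it was deleted, and give no strain or age. They also leave unsaid whether each library is from its own animal, so the p-values describe the spread between libraries, which may in part be technical.

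Mitogens and cytokines raise D cyclins, which join CDK4 or CDK6 and begin to phosphorylate the retinoblastoma protein RB. E2F factors are then released and drive the E cyclins, which with CDK2 complete the step into S phase. Inhibitors of the INK4 kind, such as p16INK4a and p18INK4c, bind CDK4 and CDK6, while p21 and p27 of the CIP/KIP kind bind cyclin and CDK complexes more widely. In a naive T cell p27 is high and D cyclins are low, and stimulation through CD3 and CD28 lowers p27 and raises D cyclins.

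Of the 10 genes, 9 passed the filter on low counts and were tested, and 5 of these passed an adjusted p of 0.05. The cyclin gene Ccnd2, the kinase gene Cdk6 and the inhibitor genes Cdkn1a and Cdkn2a were higher in LKB1-deficient cells, and the inhibitor gene Cdkn1b was lower. Among all 10396 tested genes 22.5% passed, 12.4% as higher and 10.1% as lower. The 4 tested genes that did not pass were Ccnd3, Ccne1, Ccne2 and Cdkn2c, and Ccnd1 was too low to be tested. The median log2 fold change of the 9 tested genes was 0.84, beside 0.00 over all tested genes. Because 1 gene in this group was dropped for low counts, that median does not cover all 10. Cdkn2a passed the filter, 1.49 CPM in at least 4 libraries, through the LKB1-deficient libraries alone. Its place among the 5 and in the median thus depends on being high there. The other 8 tested genes were past that level in all 8 libraries. The median of those 8 lies between the log2 fold changes of Ccne1 (0.25) and Ccne2 (0.84). Only the call of Cdkn1b stood when both LKB1-deficient replicates 2 and 4 were left out together, a smaller fit chosen with earlier results known, in which 260 of all genes passed.

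The libraries held 3454388 to 6356125 gene counts in the LKB1-deficient group and 7090252 to 12211930 in the control group. Levels are CPM, counts relative to library size scaled with TMM factors, and fold changes are LKB1-deficient over control from edgeR's quasi-likelihood test with Benjamini-Hochberg adjustment over all tested genes. Stk11 lay at 64.4 to 107 CPM in LKB1-deficient and 67.8 to 101 CPM in control libraries (log2 fold change -0.03 ± 0.19 SE, adjusted p = 0.911), a value whose sign varied with the settings; as the deleted part is not named, this level is no check of the labels. Of 5 markers of CD8 T cells, 3 were lower (Cd8a, Cd3d and Cd3g), beside 10.1% of all tested genes. Cd8b1 (log2 fold change -0.48, adjusted p = 0.0709) and Cd3e (0.32, adjusted p = 0.202) did not pass, and Cd3e went the other way. The summed level of all 5 was 1500 to 2430 CPM in LKB1-deficient and 2980 to 3530 CPM in control libraries. Markers of other cells were low. Those of CD4 T cells summed to 3.23 to 9 CPM in LKB1-deficient and 6.56 to 9.08 CPM in control libraries. Those of B cells summed to 4.56 to 7.88 CPM in LKB1-deficient and 7.23 to 12.6 CPM in control libraries. Of the B cell markers Cd79b passed as lower (adjusted p = 0.0164). Those of myeloid cells summed to 4.25 to 10.1 CPM in LKB1-deficient and 5.59 to 6.58 CPM in control libraries. Those of stromal and epithelial cells together summed to 1.35 to 9.13 CPM in LKB1-deficient and 8.05 to 15.6 CPM in control libraries. Most of that sum was the epithelial gene Epcam, at 1.08 to 8.5 CPM in LKB1-deficient and 7.66 to 14.8 CPM in control libraries. Epcam passed as lower (adjusted p = 0.0425). The stromal genes Col1a1, Col1a2 and Pdgfrb had at most 0.563 CPM in any library. The NK cell markers, which include Eomes, a factor that CD8 T cells also make, summed to 83.7 to 154 CPM in LKB1-deficient and 66.3 to 116 CPM in control libraries. Pax5, Klra8, Col3a1 and Krt8 had no count in any library. The 6 mast cell and basophil markers summed to 5.06 to 23.9 CPM in LKB1-deficient and 4.4 to 5.75 CPM in control libraries. Calls over all genes numbered 1286 higher and 1051 lower with TMM, 829 and 1576 with total count scaling, under which the overall median log2 fold change was -0.16, and 1023 and 1446 with upper quartile scaling.

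Sequences around the transcription starts are shown for Cdkn2a, whose 2 starts give different proteins, for Cdkn1b, and for the kinase genes Cdk6 and Cdk4. RefSeq windows on GRCm38.p6, from 250 bases before to 50 bases after a start, were at hand for 7 of the 10 genes. Of the rest, Ccnd1, Ccnd2 and Ccne2 are named only. The Cdkn2a locus has 2 promoters, and in the annotation its 2 transcripts have separate first exons and end in the same last exon. The upstream start, at chr4:89294570-89294869 on the minus strand, gives the ARF transcript, and the downstream start, at chr4:89282143-89282442, gives the p16INK4a transcript. Capitals mark the E2F letters TTTCCCGC, the GC box (GGGCGG) and the CCAAT box on either strand; in the downstream window a reversed CCAAT box and a GC box overlap.
Cdkn2a upstream: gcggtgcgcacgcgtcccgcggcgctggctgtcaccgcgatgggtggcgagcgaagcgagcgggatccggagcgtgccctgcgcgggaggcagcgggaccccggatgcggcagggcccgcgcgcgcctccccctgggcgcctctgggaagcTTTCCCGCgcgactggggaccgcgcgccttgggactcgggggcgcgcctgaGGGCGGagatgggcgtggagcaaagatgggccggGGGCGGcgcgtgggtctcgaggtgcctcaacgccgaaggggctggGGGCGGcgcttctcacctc
Cdkn2a downstream: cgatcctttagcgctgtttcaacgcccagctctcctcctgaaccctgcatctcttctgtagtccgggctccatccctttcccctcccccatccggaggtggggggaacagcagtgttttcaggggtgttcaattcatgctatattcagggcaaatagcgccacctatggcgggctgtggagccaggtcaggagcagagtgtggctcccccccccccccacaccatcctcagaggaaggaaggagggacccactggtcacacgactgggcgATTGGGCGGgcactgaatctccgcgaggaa
The letters TTTCCCGC stood 99 bases before the upstream start. Of all 32851 windows, 2.26% held one of the 4 E2F spellings searched on both strands (TTTCCCGC, TTTCGCGC, TTTGCCGC and TTTGGCGC), 35.7% held a GC box and 37.4% a CCAAT box, both strands read.

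The window of Cdkn1b, at chr6:134920151-134920450 on the plus strand, is shown because this gene had the smallest p of the group. Capitals mark CCAAT boxes on either strand and the GC box.
Cdkn1b: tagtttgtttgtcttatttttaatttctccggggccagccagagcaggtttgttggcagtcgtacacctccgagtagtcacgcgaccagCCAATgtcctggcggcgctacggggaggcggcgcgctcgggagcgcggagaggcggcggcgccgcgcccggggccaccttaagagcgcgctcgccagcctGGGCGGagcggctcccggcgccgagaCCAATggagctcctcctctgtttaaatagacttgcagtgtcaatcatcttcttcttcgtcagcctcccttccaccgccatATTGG
It held CCAAT boxes in 3 places and a GC box in 1. The letters GTAAACA, a core that FOXO factors bind, were searched on both strands, were in 3.65% of all windows and were not in this one.

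Cdk6 and Cdk4 encode the 2 kinases that D cyclins bind, and their windows, at chr5:3343643-3343942 and chr10:127063285-127063584, both on the plus strand, are set side by side with the E-box CACGTG in capitals.
Cdk6: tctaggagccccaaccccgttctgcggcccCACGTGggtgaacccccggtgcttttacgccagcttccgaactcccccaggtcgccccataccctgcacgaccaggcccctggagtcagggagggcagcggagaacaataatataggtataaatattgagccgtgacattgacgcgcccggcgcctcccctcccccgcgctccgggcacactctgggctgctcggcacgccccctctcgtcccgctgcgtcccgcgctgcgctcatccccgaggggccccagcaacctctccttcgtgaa
Cdk4: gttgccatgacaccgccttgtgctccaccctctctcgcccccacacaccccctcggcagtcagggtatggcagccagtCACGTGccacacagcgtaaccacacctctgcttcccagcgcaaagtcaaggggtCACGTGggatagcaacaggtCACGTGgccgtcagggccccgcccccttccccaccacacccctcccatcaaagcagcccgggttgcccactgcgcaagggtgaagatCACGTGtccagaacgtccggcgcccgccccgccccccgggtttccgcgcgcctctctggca
CACGTG, which MYC and MAX bind and which reads the same on both strands, was in 7.15% of all windows. It occurred in 1 place in the window of Cdk6 and in 4 places in that of Cdk4. These matches describe the letters in these windows and no binding was measured.

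**Figure D1:**
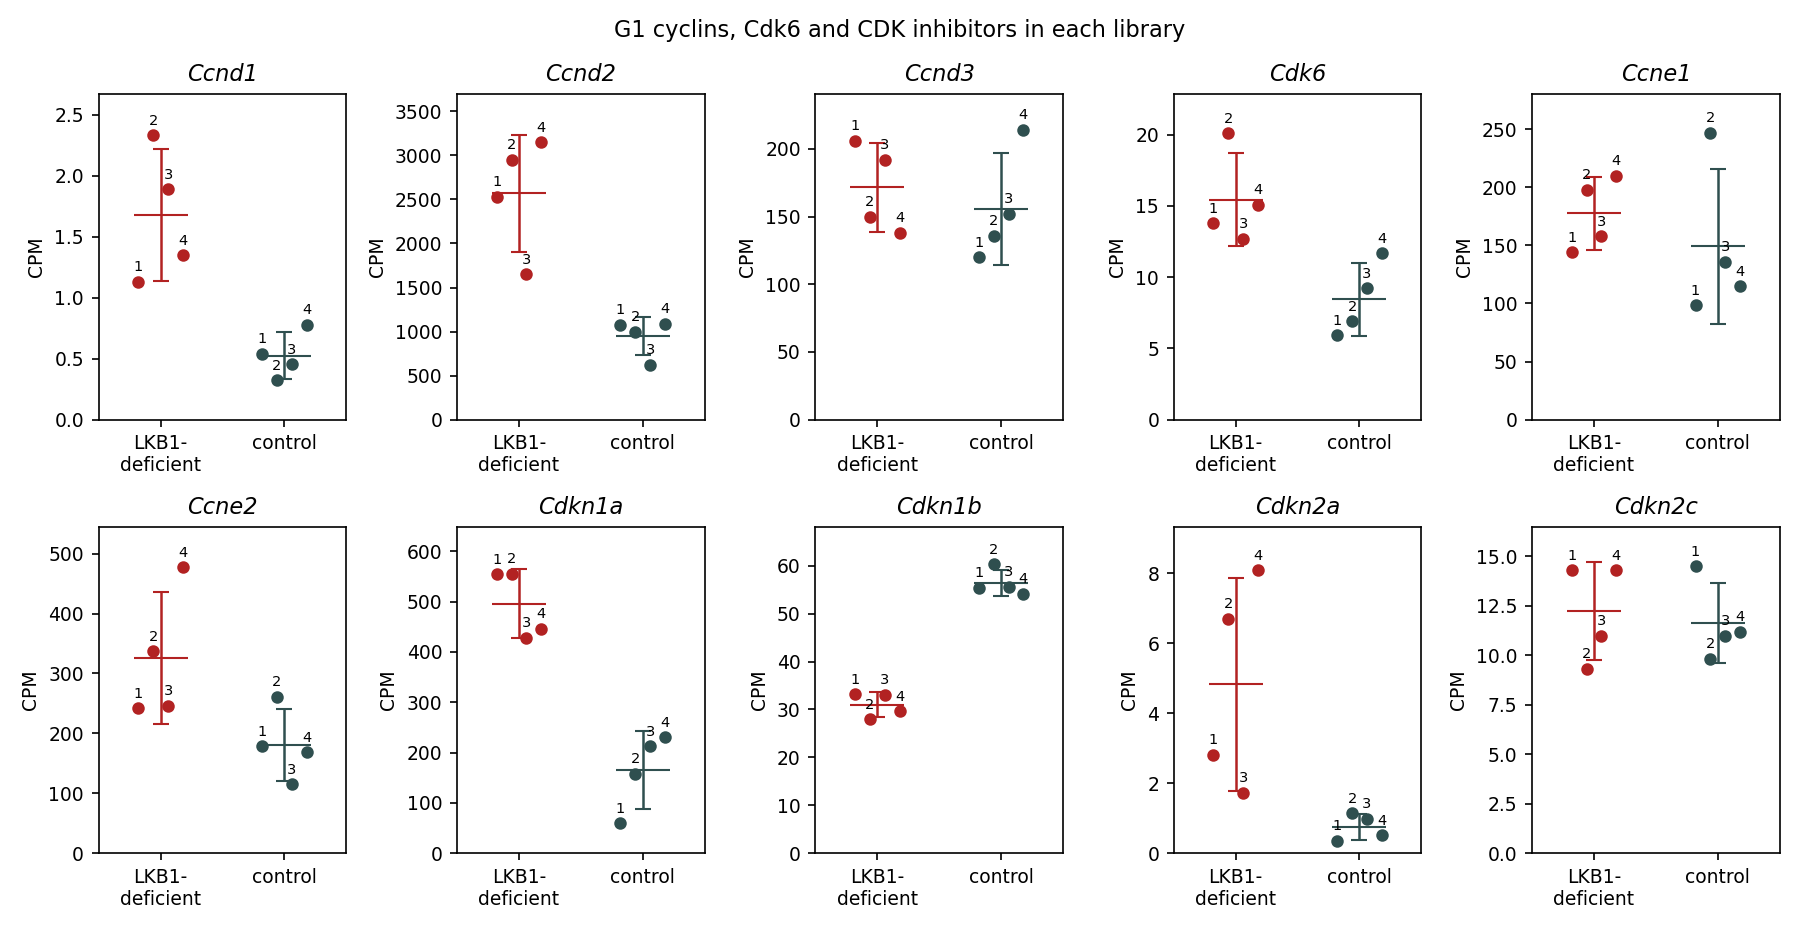
CPM of the 10 genes in each library, with LKB1-deficient libraries on the left and controls on the right of each panel. Points are single libraries numbered by replicate, lines are means and bars are SD (n = 4 each). The groups do not overlap for Ccnd1, Ccnd2, Cdk6, Cdkn1a, Cdkn1b and Cdkn2a.

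Ccnd2 encodes cyclin D2, which T cells induce after stimulation, and lies on the minus strand of chromosome 6 of GRCm38 (127125162 to 127152193). Its level was 2530, 2950, 1650 and 3150 CPM in LKB1-deficient replicates 1 to 4, against 1080, 997, 625 and 1090 CPM in control replicates 1 to 4. Every LKB1-deficient library lay above every control, and replicate 3 was the lowest of each group. The rise was 2.7-fold (log2 fold change 1.44 ± 0.25 SE, adjusted p = 0.00636). The call stood under all other alternatives and ended without both LKB1-deficient replicates 2 and 4, where the log2 fold change was 1.14 (adjusted p = 0.061). The antisense gene 9330179D12Rik, which overlaps Ccnd2 on the opposite strand, was at 0.416 ± 0.476 CPM in LKB1-deficient and 0.812 ± 0.519 CPM in control libraries (SD, n = 4 each).

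Ccnd3 encodes cyclin D3, which is needed for the expansion of immature thymocytes. It lies on the plus strand of chromosome 17 (47505051 to 47599691). Its level was 206, 150, 192 and 138 CPM in LKB1-deficient libraries, against 120, 136, 152 and 214 CPM in controls. The groups overlapped, and the highest library was a control. Its fitted log2 fold change was 0.14 ± 0.20 SE (adjusted p = 0.636) with a 95% interval from -0.31 to 0.59, and its sign turned with total count scaling and among the libraries whose identifiers begin with EU. Bysl, a ribosome assembly gene that overlaps Ccnd3 by 361 bases on the opposite strand, averaged 114 ± 22.7 CPM in LKB1-deficient and 68.4 ± 5.76 CPM in control libraries (SD, n = 4 each); whether the deposited counts used the strand is not given in the sources used here, and Bysl was picked after its values were seen.

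Ccnd1, which encodes cyclin D1, the D cyclin of many epithelial cells and fibroblasts, lies on the minus strand of chromosome 7 (144929931 to 144939925). Its raw counts were 4, 8, 12 and 5 in LKB1-deficient libraries, against 6, 4, 6 and 6 in controls, which had more counts in all. Scaled, this was 1.13, 2.33, 1.89 and 1.35 CPM in LKB1-deficient libraries, against 0.539, 0.325, 0.454 and 0.779 CPM in controls. The groups did not overlap although no library held more than 12 reads of the gene. Over the pooled counts, 29 in LKB1-deficient and 22 in control libraries, the ratio of CPM was 3.43 with a 95% interval from 1.9 to 6.26 that covers counting error only. Without the filter on low counts edgeR's quasi-likelihood test gave a log2 fold change of 1.67 ± 0.46 SE (adjusted p = 0.0294).

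Cdk6, a kinase gene on chromosome 5 (3341485 to 3531008, plus strand), was at 13.8, 20.1, 12.7 and 15.1 CPM in LKB1-deficient libraries, against 5.93, 6.91, 9.23 and 11.7 CPM in controls. The groups did not overlap, and LKB1-deficient replicate 3 and control replicate 4 were close. The rise was 1.83-fold (log2 fold change 0.87 ± 0.24 SE, adjusted p = 0.0296). This call was the least steady of the 5. It ended when LKB1-deficient replicate 2 or 4 or control replicate 1, 2 or 3 was left out (adjusted p of 0.0834, 0.0688, 0.0602, 0.0622 and 0.0611), and among libraries whose identifiers begin with EU it was 0.0671 and with total count scaling 0.0546. Cdk6 has the longest annotated transcript of the group, 11525 bases. Each gene's log2 CPM was taken as its deviation from the gene's mean over the 8 libraries. The slope of these deviations on transcript length, per doubling of length, was 0.0164 to 0.186 in LKB1-deficient and -0.192 to -0.0098 in control libraries. Such slopes compare the libraries with each other and do not give the length bias of a library alone. With each library's length trend removed, the log2 fold change of Cdk6 was 0.19 (adjusted p = 0.689). With every library thinned to 3454388 counts it was 0.48 (adjusted p = 0.232). The thinning was drawn at random and not repeated, and Cdk6 had only 49 to 122 raw reads in a library.

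The other CDK4/6 kinase gene, Cdk4, was at 453, 315, 419 and 402 CPM in LKB1-deficient libraries, against 523, 496, 613 and 521 CPM in controls. Its groups did not overlap and it did not pass (log2 fold change -0.44 ± 0.15 SE, adjusted p = 0.0623). It passed as lower with upper quartile scaling (adjusted p = 0.0446), total count scaling (0.0411) and DESeq2's Wald test (0.0154). Cdk2, the partner of the E cyclins, averaged 39.7 ± 3.89 CPM in LKB1-deficient and 43.4 ± 3.8 CPM in control libraries (SD, n = 4 each; adjusted p = 0.475).

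Ccne1 and Ccne2 encode cyclins E1 and E2, the activators of CDK2 at the entry into S phase. Ccne1 lies on the minus strand of chromosome 7 (38097984 to 38107534), and was at 144, 198, 158 and 210 CPM in LKB1-deficient libraries, against 98.5, 247, 136 and 115 CPM in controls. Control replicate 2 held the highest value of all 8. The log2 fold change was 0.25 ± 0.27 SE with a 95% interval from -0.35 to 0.85 (adjusted p = 0.522), and without control replicate 2 it was 0.60 (adjusted p = 0.0497).

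Ccne2, on the plus strand of chromosome 4 (11191351 to 11204779), was at 242, 337, 246 and 477 CPM in LKB1-deficient libraries, against 179, 261, 115 and 169 CPM in controls. LKB1-deficient replicates 2 and 4 stood above all controls, while replicates 1 and 3 lay below control replicate 2. It just missed the threshold (log2 fold change 0.84 ± 0.28 SE, 1.8-fold, adjusted p = 0.0534). It passed with DESeq2's Wald test (adjusted p = 0.0226), with a replicate block (adjusted p = 0.0372), and without LKB1-deficient replicate 1 or 3 or control replicate 2 (adjusted p of 0.0431, 0.0444 and 0.0313), and without both LKB1-deficient replicates 2 and 4 its log2 fold change was 0.43 (adjusted p = 0.397). Ints8, which overlaps the end of Ccne2 on the opposite strand, averaged 56.3 ± 4.9 CPM in LKB1-deficient and 56.4 ± 3.64 CPM in control libraries (SD, n = 4 each).

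**Figure D2:**
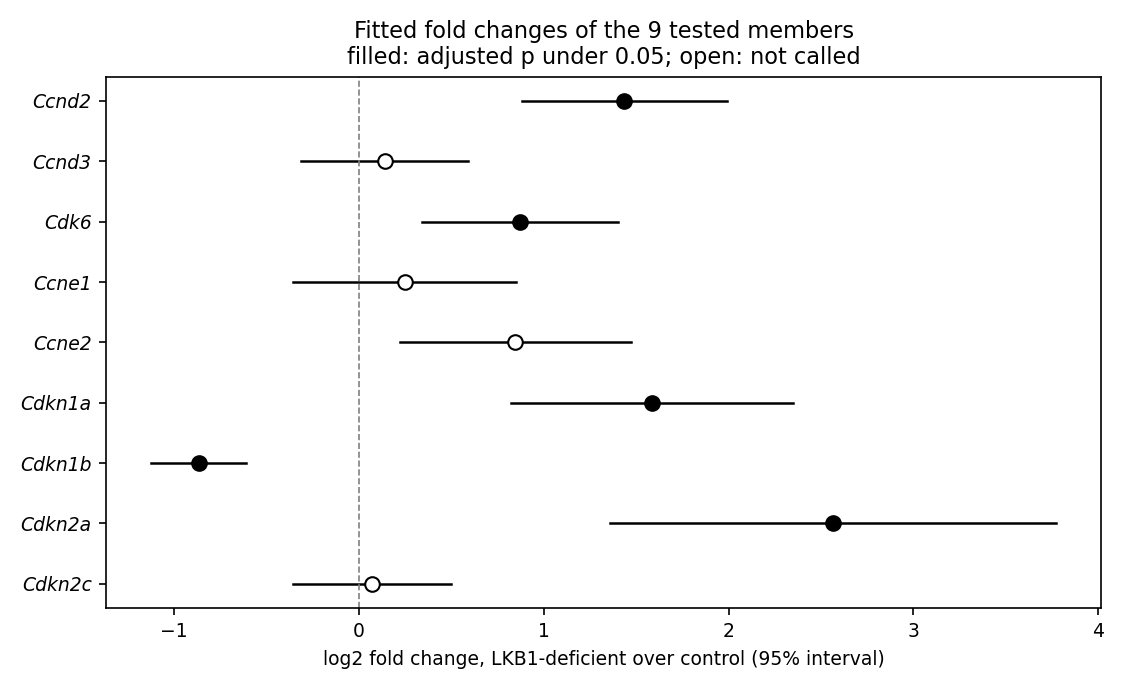
Log2 fold change, LKB1-deficient over control, of the 9 tested genes with 95% intervals from edgeR's quasi-likelihood fit (n = 4 libraries each). Filled points passed an adjusted p of 0.05 and open points did not; Cdkn1b is the filled point below 0, at -0.86.

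Cdkn1b encodes p27, the inhibitor that holds resting T cells out of the cycle, and lies on the plus strand of chromosome 6 (134920401 to 134925513). It was at 33.2, 28, 33.1 and 29.7 CPM in LKB1-deficient libraries, against 55.4, 60.3, 55.6 and 54.2 CPM in controls. The groups lay far apart, and the values within a group were close, with coefficients of variation of 8.34% in LKB1-deficient and 4.76% in control libraries. The gene was 1.82-fold lower (log2 fold change -0.86 ± 0.11 SE, adjusted p = 0.00341), and it passed under all 21 alternatives at the threshold of 0.05 (log2 fold change between -1.02 and -0.76). The 3 tested genes whose log2 CPM ran closest to it over the 8 libraries were Dok1, an adaptor that dampens receptor signalling (Pearson r = 0.987), Ddx26b (r = 0.985) and Ap3s1, a subunit of the AP-3 sorting adaptor (r = 0.983). These r values mix the 2 groups and the libraries' shared depth, and describe the likeness only.

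Cdkn1a encodes p21, a p53 target that also rises in T cells after stimulation. It lies on the plus strand of chromosome 17 (29090976 to 29100727). Its level was 554, 555, 428 and 446 CPM in LKB1-deficient libraries, against 60.1, 158, 213 and 230 CPM in controls. The groups did not overlap, and control replicate 1 lay far below the other controls. The rise was 3-fold (log2 fold change 1.59 ± 0.34 SE, adjusted p = 0.0134). Replicate 1 of each group has an identifier that begins with ET and the others begin with EU; among the EU libraries alone the log2 fold change was 1.25 (adjusted p = 0.0156). Without both LKB1-deficient replicates 2 and 4 it was 1.58 (adjusted p = 0.0877).

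Cdkn2a, on the minus strand of chromosome 4 (89274471 to 89294653), encodes both the CDK4/6 inhibitor p16INK4a and ARF, which restrains the p53 antagonist MDM2. As both transcripts end in the same exon, 3' counts do not tell them apart. It was a low gene, with raw counts of 10, 23, 11 and 30 in LKB1-deficient libraries, against 4, 14, 13 and 4 in controls. Scaled, this was 2.81, 6.7, 1.73 and 8.09 CPM in LKB1-deficient libraries, against 0.359, 1.14, 0.984 and 0.52 CPM in controls. All LKB1-deficient libraries lay above all controls, with replicates 2 and 4 well above replicates 1 and 3. The rise was 5.93-fold (log2 fold change 2.57 ± 0.54 SE, adjusted p = 0.0126), with a 95% interval of the log2 fold change from 1.36 to 3.77. All 4 LKB1-deficient libraries and none of the controls were past the level the filter asks for, so a gene with this pattern was tested only because it was high in LKB1-deficient cells. Without the filter the log2 fold change was 2.54 (edgeR's quasi-likelihood test, adjusted p = 0.0088). Without both LKB1-deficient replicates 2 and 4 the log2 fold change was 1.49 (adjusted p = 0.162). After thinning to equal depth the gene fell under the filter.

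Gata2, a factor of mast cells and blood progenitors, was at 0.563, 9.62, 2.36 and 8.36 CPM in LKB1-deficient libraries, against 0.809, 1.14, 1.29 and 1.69 CPM in controls. It was highest in the same replicates 2 and 4 as Cdkn2a, Ccnd2, Cdk6, Ccne1 and Ccne2, and it passed as higher, the only one of the 3 tested mast cell and basophil markers to do so. Cpa3, a mast cell protease gene, had the same order, at 0.281, 4.08, 1.42 and 3.77 CPM in LKB1-deficient libraries, against 0.719, 0.162, 0.908 and 1.04 CPM in controls. Kit, the stem cell factor receptor gene, was at 0.844, 3.21, 1.42 and 2.7 CPM in LKB1-deficient libraries, against 1.44, 1.79, 1.21 and 1.04 CPM in controls. Both genes overlapped between the groups and were highest in replicates 2 and 4. Ms4a2, a chain of the IgE receptor, was highest in replicate 4 (2.43 CPM) and the basophil protease gene Mcpt8 in replicate 2 (5.83 CPM), both without overlap, while the other receptor chain gene Fcer1a had at most 0.539 CPM in any library. The part of such cells in the levels of Cdkn2a and the other genes was not tested. In bulk samples more cells of a kind and more RNA per cell cannot be told apart.

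Cdkn2c encodes the INK4 inhibitor p18INK4c, and lies on the minus strand of chromosome 4 (109660876 to 109667189). It was at 14.3, 9.32, 11 and 14.3 CPM in LKB1-deficient libraries, against 14.5, 9.83, 11 and 11.2 CPM in controls. The groups covered nearly the same range. Its fitted log2 fold change was 0.07 ± 0.19 SE (adjusted p = 0.809) with a 95% interval from -0.35 to 0.50, and its sign turned under several settings. Of the 3 other CDK inhibitor genes, Cdkn1c, Cdkn2b and Cdkn2d, only Cdkn2d (p19INK4d) was tested, at 63.1 ± 19.7 CPM in LKB1-deficient and 74.2 ± 12.9 CPM in control libraries (SD, n = 4 each; adjusted p = 0.469). Cdkn2b, next to Cdkn2a, averaged 0.808 ± 0.549 CPM in LKB1-deficient and 0.347 ± 0.28 CPM in control libraries.

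Over the group, 6 of the 10 genes had libraries that did not overlap, 5 higher and 1 lower in LKB1-deficient cells. Among all tested genes 12% did not overlap on the higher side and 14.1% on the lower side. The 5 higher genes include Ccnd1, which was not tested and so lies outside those shares. They also include Cdkn2a, which passed the filter through the LKB1-deficient libraries alone. In 5 of the 10, Ccnd2, Cdk6, Ccne1, Ccne2 and Cdkn2a, the highest LKB1-deficient libraries were replicates 2 and 4. Cdkn1a, Cdkn1b, Ccnd1, Ccnd3 and Cdkn2c did not have this order. Among all tested genes 26.9% had it. LKB1-deficient replicates 2 and 4 also stood apart from replicates 1 and 3 in other measures. Their length slopes were 0.186 and 0.168, against 0.0164 and 0.0484 in LKB1-deficient replicates 1 and 3, and their TMM factors 0.8896 and 0.8639, against 1.031 and 1.001. Their shares of counts outside genes were 17.5% and 16.5%, against 15.9% and 14.9%. Within the LKB1-deficient group the pair of replicates 2 and 4 differed least (chi-square over its degrees of freedom 10.86), followed by the pair of replicates 1 and 3 (13.39). The control group was split too. Control replicates 3 and 4 had slopes of -0.168 and -0.192, against -0.049 and -0.0098 in control replicates 1 and 2. Their shares outside genes were 12.1% and 12.8%, against 14.3% and 13.7%. Among control pairs they differed least (11.2), followed by control replicates 1 and 2 (23.81). The chi-square of a pair in either group also grows with its read depth, so pairs of unlike depth are not strictly comparable. The part of these measures in the levels of the 5 genes was not tested.

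Ratios of counts within a library do not depend on how libraries are scaled, and are given as a description with pairs chosen after values were seen. Cdkn1a over Cdkn1b was 16.7, 19.8, 12.9 and 15.1 in LKB1-deficient libraries, against 1.08, 2.61, 3.83 and 4.24 in controls. The lowest LKB1-deficient ratio was above the highest control ratio. This had to be so, as Cdkn1a was higher and Cdkn1b lower without overlap, and it adds no separate support. Ccnd2 over Cdkn1b was 76.1, 105, 50 and 106 in LKB1-deficient libraries, against 19.6, 16.5, 11.2 and 20.2 in controls. Here too the lack of overlap was fixed by the levels of the single genes. Cdk6 over Cdk4 was 0.0305, 0.0638, 0.0304 and 0.0375 in LKB1-deficient libraries, against 0.0113, 0.0139, 0.0151 and 0.0224 in controls. As Cdk6 was higher and Cdk4 lower without overlap, this ratio could not overlap either. Cdk6 and Cdk4 differ in transcript length, 11525 and 2053 bases, and the length trends given with Cdk6 apply to this ratio as well. Ccnd2 over Ccnd3 averaged 15.8 ± 6.54 in LKB1-deficient and 6.39 ± 2.21 in control libraries (SD, n = 4 each) and overlapped at LKB1-deficient replicate 3 and control replicate 1. Ccne2 over Ccne1 averaged 1.8 ± 0.32 in LKB1-deficient and 1.3 ± 0.432 in control libraries and overlapped too.

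**Figure D3:**
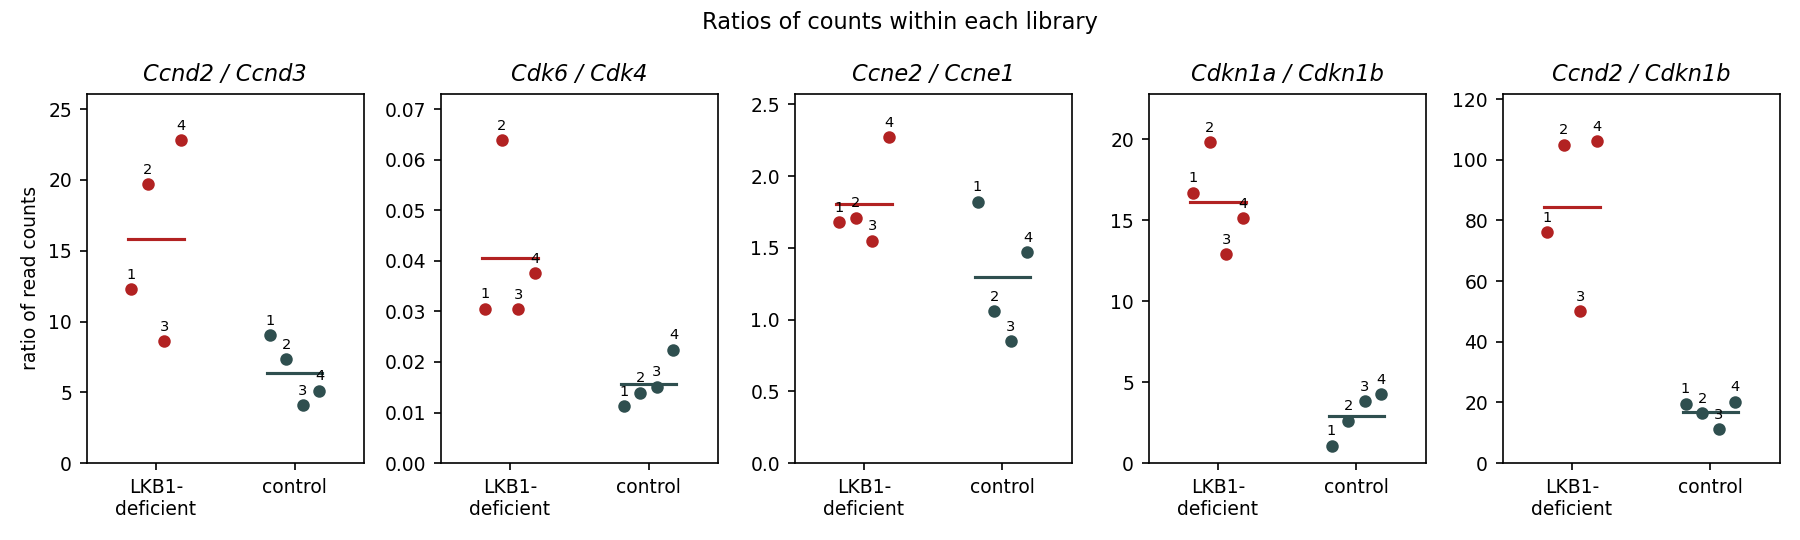
Ratio of read counts of 2 genes within each library, LKB1-deficient on the left and control on the right, with replicates numbered and lines at the means (n = 4 each). Cdkn1a over Cdkn1b ranges from 12.9 to 19.8 in LKB1-deficient and from 1.08 to 4.24 in control libraries.

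The rest of the machinery was read from lists of other cell cycle genes, which were chosen with earlier results of these data known. Beside the count of each list stand the shares of all tested genes, 12.4% higher and 10.1% lower. Of 18 RB, E2F and DREAM factors, all tested, 5 were higher and none lower (median log2 fold change 0.14). The split was 4 higher and 3 lower with total count scaling, 4 and 2 with upper quartile scaling and 5 and 1 with DESeq2's Wald test. E2f3, an activating E2F, averaged 83.4 ± 17.2 CPM in LKB1-deficient and 41.3 ± 4.74 CPM in control libraries (SD, n = 4 each; adjusted p = 0.00534). Lin54, a DNA-binding part of the DREAM complex, averaged 61.2 ± 11.8 CPM in LKB1-deficient and 31.4 ± 2.69 CPM in control libraries (adjusted p = 0.00474). The repressing factors E2f7 and E2f8 and the activator Mybl2 made up the 5. In this list 2 genes were higher without both LKB1-deficient replicates 2 and 4, and 3 were higher without LKB1-deficient replicate 4 or control replicate 1, 3 or 4.

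E2F factors drive the genes of S phase. Of 22 tested, Orc1, of the origin recognition complex, was higher (1.33-fold), and Gins2, of the replicative helicase, was lower (1.48-fold), while 20 did not pass, beside 22.5% of all tested genes that did; the median over the 22 was -0.04. With DESeq2's Wald test 5 of them were higher and 1 lower. Of 20 genes of G2 and mitosis none was higher and 2 were lower, beside 12.4% and 10.1% of all tested genes. The lower ones were the centromere histone gene Cenpa (1.8-fold) and the cyclin gene Ccnb2 (1.49-fold), and the median was 0.05. Summed over the 20, the level was 5390 to 7030 CPM in LKB1-deficient and 3750 to 5380 CPM in control libraries, which was not tested. The largest part was Top2a, at 1700 to 2330 CPM in LKB1-deficient and 905 to 1670 CPM in control libraries (adjusted p = 0.0587). With DESeq2's Wald test 3 of the 20 were higher and 2 lower. Of 12 other kinases, activators and subunits, Cdc25a, the phosphatase that switches on CDK2, was 2.23-fold higher at 372 ± 79.4 CPM in LKB1-deficient and 166 ± 21.1 CPM in control libraries (SD, n = 4 each; adjusted p = 0.00464). Cks1b, a CDK-binding protein that helps SKP2 mark p27, was 1.38-fold lower (adjusted p = 0.0375), and 10 did not pass; the median over the 12 was -0.11. With upper quartile scaling, total count scaling or DESeq2's Wald test 1 of the 12 was higher and 3 were lower, and without LKB1-deficient replicate 2 or 4 or control replicate 1, 3 or 4, 1 was higher and none lower. The calls of Orc1, Gins2, Ccnb2 and Cks1b ended under 16, 6, 7 and 9 of 21 alternatives in the order named. No S phase gene passed without LKB1-deficient replicate 2 or 4 or control replicate 3, and over all single libraries left out 0 to 2 were higher and 0 to 2 lower. Of the genes of G2 and mitosis, 2 were higher and 2 lower without LKB1-deficient replicate 1 or control replicate 2, and 1 was lower and none higher without LKB1-deficient replicate 2 or 4 or control replicate 3 or 4. No gene of the S phase and G2 and mitosis lists passed without both LKB1-deficient replicates 2 and 4.

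Of 11 tested ubiquitin ligase genes that act on cyclins and inhibitors, 2 were higher and none lower (median 0.27), beside 12.4% and 10.1% of all tested genes. Only 1 was higher with upper quartile or total count scaling, or without LKB1-deficient replicate 1, 2 or 4 or control replicate 1, 3 or 4. Skp2, the F-box protein that directs p27 to the proteasome, was 1.61-fold higher (adjusted p = 0.0401), and Fbxw7, the F-box protein that directs cyclin E there, was 1.98-fold higher (adjusted p = 0.0123). The call of Skp2 ended under 13 of 21 alternatives, and no gene of this list passed without both LKB1-deficient replicates 2 and 4.

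Cdkn1a was also set beside a list of other targets of p53, which also holds Trp53, the gene of p53 itself. Of 17 tested, 6 were higher and 2 lower, beside 12.4% and 10.1% of all tested genes. The median log2 fold change of the list, 0.45, is the value of Trp53 itself. Without Trp53 the median lies between the values of Plk2 (0.0064) and Ccng1 (0.49). The split was 3 higher and 3 lower with upper quartile or total count scaling, and 2 higher and 3 lower with the replicate block or a term for identifier prefix. Zmat3 averaged 22.8 ± 6.86 CPM in LKB1-deficient and 8.78 ± 0.867 CPM in control libraries (adjusted p = 0.00624). The death receptor gene Tnfrsf10b averaged 8.51 ± 2.18 CPM in LKB1-deficient and 4.04 ± 0.603 CPM in control libraries (adjusted p = 0.0144). Mdm2, Ccng1, Gadd45a and Trp53 were the other higher genes, so 1 of the 6 encodes p53 and is not counted on as its target. Sesn1 was 2.79-fold lower (adjusted p = 0.00341) and the death receptor gene Fas 1.79-fold lower (adjusted p = 0.00506). Without both LKB1-deficient replicates 2 and 4 none was higher and 2 were lower. With single libraries left out 2 to 7 were higher and 2 lower, the 2 being reached without LKB1-deficient replicate 2 or 4 or control replicate 1, 3 or 4.

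Among 14 tested genes linked to quiescence, 2 were higher and 2 lower (median 0.11), beside 12.4% and 10.1% of all tested genes. Under both upper quartile and total count scaling 2 were higher and 3 lower. The higher ones were the antiproliferative gene Tob2 (1.76-fold) and the zinc finger factor Klf6 (1.81-fold). Ccng2, a cyclin gene that FOXO factors induce in resting cells, was at 21.7 ± 9.05 CPM in LKB1-deficient and 46.4 ± 5.52 CPM in control libraries (adjusted p = 0.0184). Pik3ip1, an inhibitor of PI3K, was 2.6-fold lower (adjusted p = 0.0111). No gene of this list was higher without LKB1-deficient replicate 2 or 4 or control replicate 3 or 4, and none passed in either direction without both LKB1-deficient replicates 2 and 4.

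Of 14 tested regulators of the Cdkn2a locus, 3 were higher and 1 lower (median 0.03), beside 12.4% and 10.1% of all tested genes. With DESeq2's Wald test or without LKB1-deficient replicate 3, 5 were higher and 1 lower. The 3 higher ones were Suz12, a subunit of the Polycomb complex PRC2, and the demethylase genes Kdm6b and Kdm2b. Kdm6b, which removes the H3K27 methyl mark, averaged 65.6 ± 10.7 CPM in LKB1-deficient and 29.4 ± 4.19 CPM in control libraries (adjusted p = 0.00341). Kdm2b, of a variant PRC1 complex, averaged 77 ± 21.6 CPM in LKB1-deficient and 32.2 ± 8.63 CPM in control libraries (adjusted p = 0.00926). Ring1, a ligase subunit of PRC1, was 1.39-fold lower (adjusted p = 0.0454). Without LKB1-deficient replicate 2 or 4 or control replicate 3 or 4, 2 genes of this list were higher and none lower, and without both LKB1-deficient replicates 2 and 4, 1 was higher. The call of Ring1 ended under 12 of 21 alternatives.

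**Figure D4:**
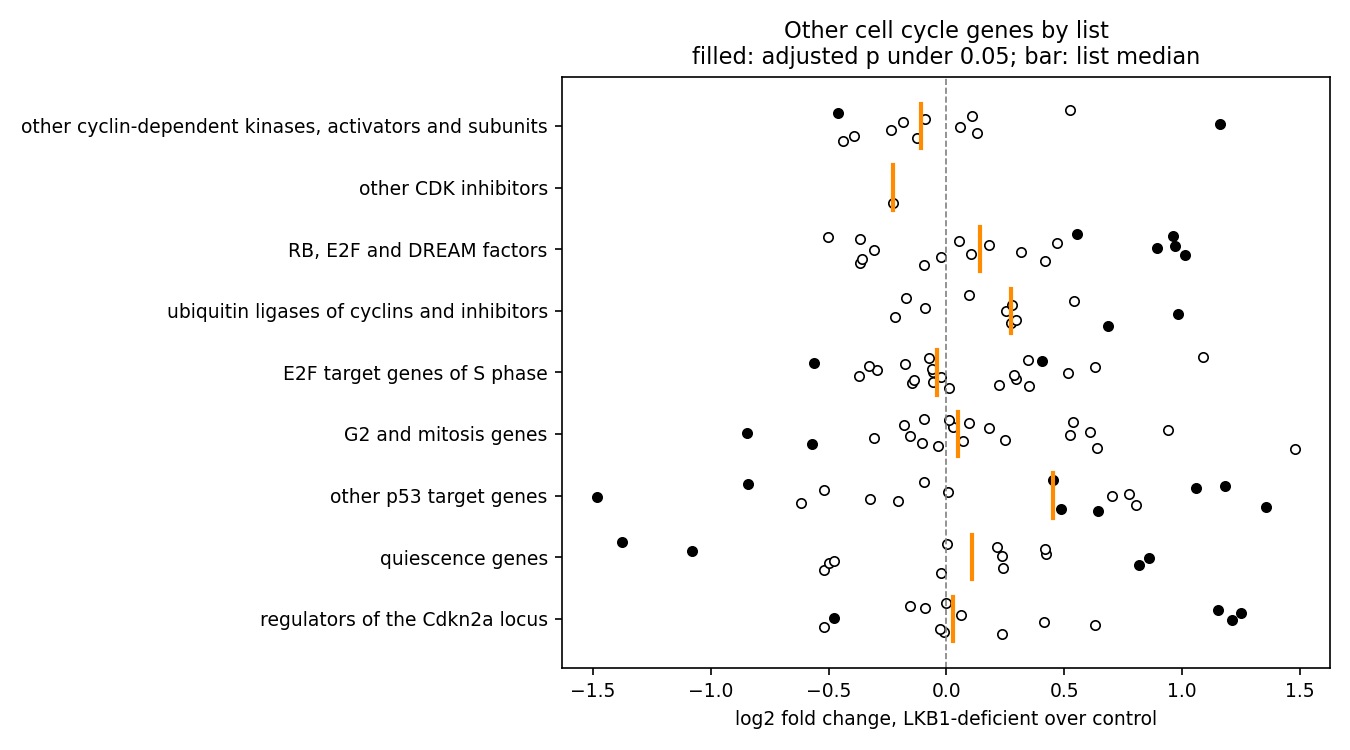
Log2 fold change, LKB1-deficient over control, of each tested gene in the 9 lists of other cell cycle genes, with filled points past an adjusted p of 0.05 and bars at list medians. Medians run from -0.22 for the single tested gene of the other CDK inhibitors to 0.45 for the list of p53 targets. That list also holds Trp53, whose own value is its median.

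Across the processing alternatives the tested genes differed in how far their values moved. Ccnd2 stayed between 1.12 and 1.59, Cdkn1a between 1.25 and 1.78 and Cdkn2a between 1.49 and 2.94 on the log2 scale, all higher in LKB1-deficient cells. Cdk6 ranged from 0.19 to 1.05 and lost its call under 10 of 21 alternatives.

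**Figure D5:**
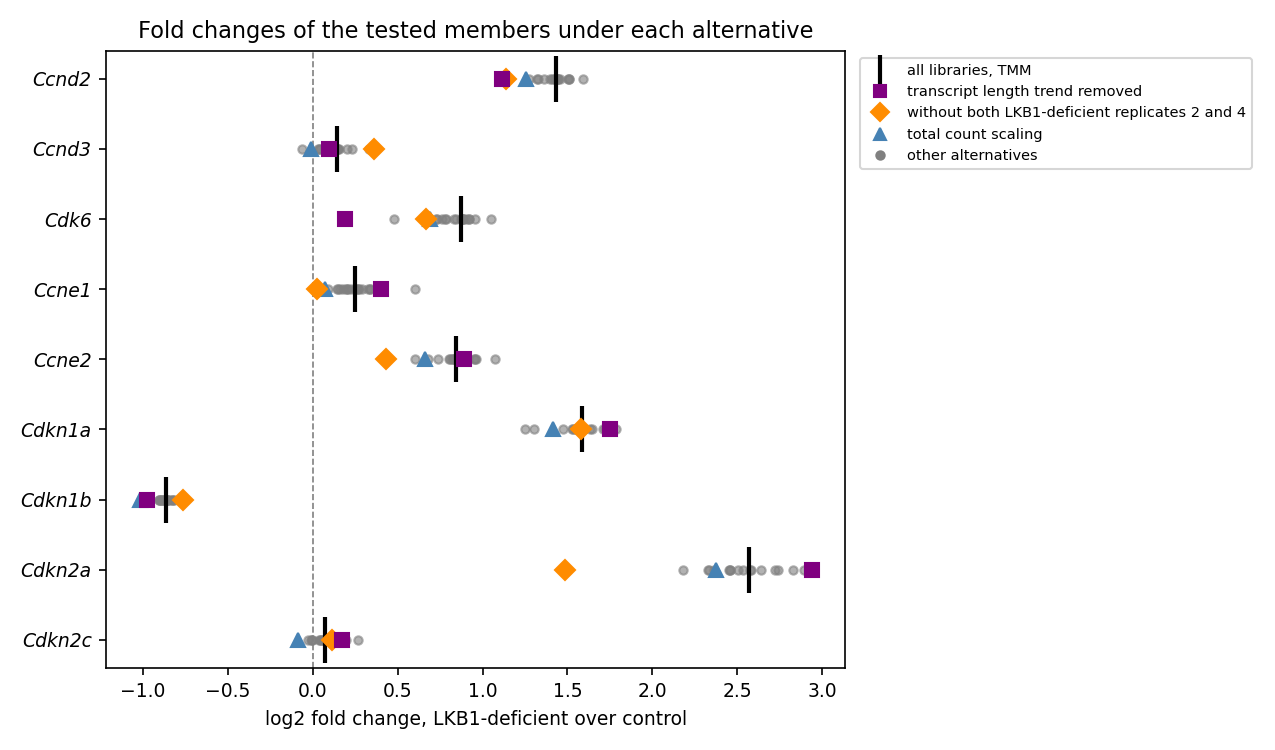
Log2 fold change of the 9 tested genes with all libraries and TMM scaling (black bars) and under each alternative (symbols). Cdk6 is at 0.87 with all libraries and at 0.19 with transcript length trends removed, while Cdkn1b stays between -1.02 and -0.76.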

How the data were processed

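The tables the authors deposited, 1 for each library, hold whole-number read counts by gene symbol that were not normalized. Per the labels' protocols, RNA was primed with barcoded oligo-dT, samples were pooled by Actb qPCR, and strand-keeping 3' libraries were amplified by 12 cycles of PCR. No molecular identifiers are named, so counts may hold PCR copies and counting intervals cover counting error only. Reads were aligned with STAR to mm10, per the submitters' processing notes; its version, the counter and the annotation are not named there or in the labels. Lines naming no gene were left out of library sizes; counts outside genes were 14.9% to 17.5% in LKB1-deficient and 12.1% to 14.3% in control libraries.

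Counts were tested in R 4.3.3 with edgeR 4.0.16: filterByExpr (minimum count 10, total 15), TMM, and the robust quasi-likelihood test without covariates on all 8 libraries. SE is the absolute log2 fold change over the root of F. The test was checked on simulated data in which the libraries of a group were drawn independently. That check does not cover the likeness seen between some libraries of a group. Library pairs within a group differed by more than counting error (chi-square over its degrees of freedom 10.86 to 46.25). Alternatives were other scalings, DESeq2 1.42.0, limma 3.58.1 (voom), filters, a replicate block and a term for identifier prefix. Others were libraries left out, thinning by a random draw that was not repeated, and an adjusted p of 0.01. Removal of length trends was a further alternative (lowess span 0.3, with a GENCODE vM21 length for 96.5% of tested genes). Named were the 10 genes, Stk11, Cdk4, Cdk2, up to 2 genes per list and direction by smallest p, and the 3 genes most like the member with the smallest p; others named alongside were chosen after their values were seen. The members and lists were chosen with earlier results of these data known.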

Additional observations from a re-analysis of the deposited data

How the results depend on the processing

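The number of genes called was 2337 and the number of the 10 genes called was 5. With 1 library left out, genes called ranged from 1011 (without control replicate 3) to 2825 (without LKB1-deficient replicate 3) and were 1017, 1113 and 1303 without LKB1-deficient replicate 4, LKB1-deficient replicate 2 and control replicate 4, while 4 to 6 of the 10 genes passed. Without both LKB1-deficient replicates 2 and 4, 260 genes and 1 of the 10 passed, in a smaller group. At an adjusted p of 0.01, 437 genes and 2 of the 10 (Ccnd2 and Cdkn1b) passed, and after thinning 3 of the 10 did, with Cdkn2a below the filter; the cause of the lost Cdk6 call was not tested. The log2 fold change of Cdkn2c reversed to -0.025 with upper quartile and -0.087 with total count scaling and lay between -0.0081 and 0.19 with 1 library left out. That of Ccnd3 reversed to -0.013 with total count scaling and -0.065 in EU libraries. That of Stk11 reversed to 0.10 in EU libraries and 0.18 without both LKB1-deficient replicates 2 and 4, and lay between -0.22 and 0.079 with 1 library left out. None of these passed. The deviations of same-numbered libraries of the 2 groups correlated with mixed sign (r of -0.251, 0.291, 0.3 and -0.0861 for replicates 1 to 4), and 3 of 8 libraries correlated best with their own number; with the replicate block 1902 genes and 6 of the 10 passed, Ccne2 being added. Low counts limit Ccnd1 and Cdkn2a.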

Other observations

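Mki67, the gene of the proliferation antigen Ki-67 and a member of the list of G2 and mitosis genes, was at 223, 823, 392 and 1270 CPM in LKB1-deficient libraries, against 323, 352, 173 and 122 CPM in controls. It was chosen after its values were seen. It did not pass (log2 fold change 1.48 ± 0.51 SE, adjusted p = 0.0607), and LKB1-deficient replicate 1 lay below 2 controls. Its highest LKB1-deficient libraries were replicates 2 and 4, as for Ccnd2, Cdk6, Ccne1, Ccne2 and Cdkn2a.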
